A study of Mus musculus with 2 samples.

Results

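The growth hormone axis of the liver was followed through 10 genes: the receptor gene Ghr, the kinase gene Jak2, the transcription factor genes Stat5a and Stat5b, the feedback inhibitor genes Socs2 and Cish, the secreted products Igf1 and Igfals, and the repressor genes Bcl6 and Cux2. The members were all non-control probes whose gene name in the scanner files was one of these symbols. This gave 19 probes of 39429 on the array, and 10 gene names of 31894. Liver RNA of the C57BL/6 strain was read on 1 array for each of 2 genotypes, Wild-type and Alb-Cre;CAG-floxed neo-Snail. Alb-Cre drives Cre recombinase in hepatocytes through the promoter of albumin, and CAG is a strong general promoter, so that the transgene is meant to act in hepatocytes while the sample is whole liver. The labels do not give sex, age, diet or the number of animals behind each RNA sample, and the groups share strain and tissue. The comparison asks how the liver labelled with the Snail transgene differs from wild-type liver.

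Growth hormone from the pituitary binds its receptor on hepatocytes, which activates JAK2 and then STAT5, mainly STAT5B in liver. STAT5 drives transcription of Igf1 and Igfals, whose products circulate as a growth factor and its stabilising subunit, and of Socs2 and Cish, whose products dampen the signal. In mice the pattern of hormone release differs between the sexes, and Cux2, a repressor highly enriched in female liver, and Bcl6, a repressor that competes with STAT5 for its sites and is higher in male liver, carry part of that difference to the sex-biased genes of the liver.

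The sequences below show what was measured for members named in the results and the STAT5 core motif in their start regions. Both probes are 60 bases long, and each has 1 reading frame without a stop codon. The first is the Socs2 probe on chromosome 10 from 94875468 to 94875527 (mm9, minus strand), the second the only Igfals probe, on chromosome 17 from 25018251 to 25018310 (mm9, plus strand). Both are written 5′ to 3′ as in the scanner files.
Socs2 probe: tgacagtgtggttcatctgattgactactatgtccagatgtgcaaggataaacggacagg
Igfals probe: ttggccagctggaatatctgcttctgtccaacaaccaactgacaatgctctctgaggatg

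The start regions come from RefSeq on GRCm38.p6, with 250 bases before and 50 after the annotated start, and capitals mark matches to TTCNNNGAA, the core that STAT5 and BCL6 both recognise. This motif of 9 bases is its own reverse complement, so both strands give the same matches, and no matches overlapped here. RefSeq windows were found for 9 of the 10 members, Socs2 being the member without an entry. Of 16 member windows, 5 held the motif, against 8.30% of all 32851 windows. By gene, 3 of the 9 members with windows held it, against 9.55% of 27025 genes. The Cish window is chr9:107296409-107296708 on the plus strand. The Bcl6 window is chr16:23981234-23981533 on the minus strand. The Igfals window is chr17:24877981-24878280 on the plus strand. Another Bcl6 window and another Igfals window held 1 match each.
Cish: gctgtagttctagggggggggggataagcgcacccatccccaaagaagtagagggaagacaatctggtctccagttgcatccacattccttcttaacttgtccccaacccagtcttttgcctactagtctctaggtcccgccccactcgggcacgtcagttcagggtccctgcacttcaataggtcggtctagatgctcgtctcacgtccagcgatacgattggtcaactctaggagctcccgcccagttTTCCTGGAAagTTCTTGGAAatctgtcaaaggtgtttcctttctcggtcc
Bcl6: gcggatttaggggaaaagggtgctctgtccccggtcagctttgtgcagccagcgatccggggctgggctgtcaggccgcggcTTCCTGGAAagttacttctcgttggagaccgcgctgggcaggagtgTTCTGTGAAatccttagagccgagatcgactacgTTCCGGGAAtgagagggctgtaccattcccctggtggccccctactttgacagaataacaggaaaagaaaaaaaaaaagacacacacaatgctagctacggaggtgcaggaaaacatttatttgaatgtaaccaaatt
Igfals: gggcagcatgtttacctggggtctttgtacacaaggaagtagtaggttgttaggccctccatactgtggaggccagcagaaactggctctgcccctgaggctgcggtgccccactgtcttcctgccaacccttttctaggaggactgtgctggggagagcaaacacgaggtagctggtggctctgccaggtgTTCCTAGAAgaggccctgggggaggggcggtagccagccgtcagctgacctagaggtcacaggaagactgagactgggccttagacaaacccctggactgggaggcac

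The Cish window held 2 matches, TTCCTGGAA and TTCTTGGAA, that begin at bases 1 and 12 of the annotated transcript. Windows with at least 2 matches made up 0.457% of all windows. The Bcl6 window held 3, a count reached by 0.0335% of all windows, and the Igfals window 1. A match describes the letters in the window and was not tested as a binding site.

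Values below are processed signals divided by the 75th percentile of the array, called scaled signals, and differences are log2 of the Snail-labelled over the wild-type scaled signal. With 1 array per group there was no test and no p-value, and a difference of at least 2-fold was counted by size alone. The 75th percentile was 232.7 in wild-type and 302.1 in Snail-labelled liver. No spot was saturated, and the share of spots well above background was 50.7% and 54.0%. Probes printed at least 5 times gave a technical spread of the log2 difference, as the median SD between spots. It was 0.19 for signals under 100, 0.07 from 100 to 1000 and 0.04 above 1000, and it holds no difference between animals. The probe of Snai1, the gene of the transgene, had a log2 difference of -0.44 at signals of 23.2 and 22.3. The sources used here do not say whether this probe lies within the transgene, so it is no check of the genotype, and the sample is called Snail-labelled throughout.

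All 10 members were measured on both arrays, by 18 of the 19 probes. Past 2-fold, 4 of those 18 probes were lower and 0 higher in the Snail-labelled liver, against 6.16% lower and 3.75% higher among all 19046 probes measured on both arrays. By gene mean, Cux2 and Socs2 were past 2-fold, so that 2 of the 10 members were lower and 0 higher by that much, against 6.34% lower and 3.96% higher among 15466 genes. The median over the 10 members was -0.16 and that over all genes -0.03. The members split into 5 below 0, which were Cux2, Socs2, Ghr, Igf1 and Igfals, and 5 above 0, which were Bcl6, Jak2, Stat5b, Cish and Stat5a.

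**Figure D1:**
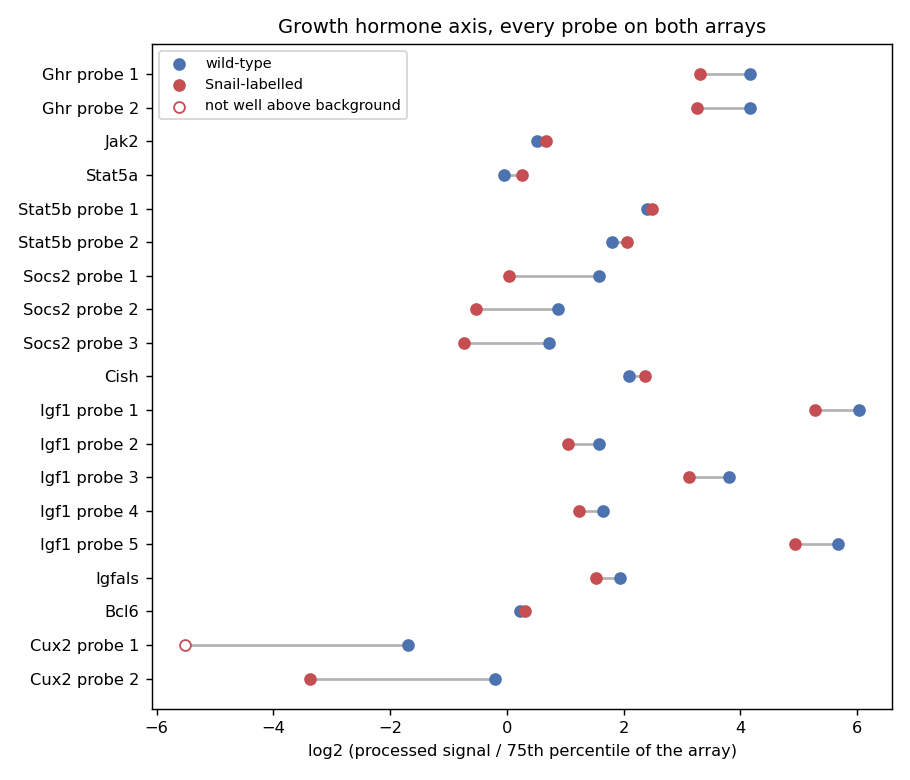
Scaled signal of each of the 19 probes, as log2 of the signal over the 75th percentile of its array, in wild-type liver (blue) and Snail-labelled liver (red), with an open point where the probe was not well above background. Both Ghr, all 3 Socs2, all 5 Igf1 and both Cux2 probes lay lower in the Snail-labelled liver; levels of different probes are not comparable.

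The receptor gene Ghr was 1.85-fold lower in the Snail-labelled liver. Its probe for transcript variant 1, on chromosome 15 from 3268107 to 3268166 (mm9), had a scaled signal of 18.0 in wild-type and 9.87 in Snail-labelled liver, a log2 difference of -0.87. The probe for transcript variant 2, on chromosome 15 from 3277543 to 3277602, had 18.0 and 9.59, a difference of -0.91. In mice Ghr also encodes a soluble hormone-binding protein by alternative splicing. The probes lie 9436 bases apart and their differences were 0.04 apart, within the technical spread at this signal, so both probes were lower by about the same factor. The Ghr mean of -0.89 lay at percentile 7.86 of the differences of all genes.

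Hepatocyte markers moved in the same direction as Ghr. All 10 were lower in the Snail-labelled liver, 0 by at least 2-fold, with log2 differences from -0.94 to -0.08, a median of -0.59 and a summed scaled signal of 5979 in wild-type and 4049 in the other. In whole liver, fewer hepatocytes and less RNA per hepatocyte cannot be told apart. The size of this shift depends on how the arrays are scaled. The hepatocyte median was -0.52 with normexp background correction, -0.28 centred on probes of like signal and -0.03 under quantile normalization. Under quantile normalization Ghr was at -0.74 and Igf1 at -0.47. That method makes the ranked signals of both arrays equal, and most of these markers are very bright. How much of their small median there follows from the method was not tested. The part of the hepatocyte share in Ghr was not tested.

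The signal transducers were close to even between the livers. Jak2, the kinase bound to the receptor, had a scaled signal of 1.43 in wild-type and 1.59 in Snail-labelled liver, a log2 difference of 0.15. Stat5a had 0.972 and 1.20, a difference of 0.30. For Stat5b, the form that carries most of the growth hormone response in liver, the probe on chromosome 11 from 100642045 to 100642104 (mm9) had 5.32 and 5.62, a difference of 0.08. The probe 142 bases further along the chromosome had 3.47 and 4.15, a difference of 0.26. All 3 genes thus read slightly higher in the Snail-labelled liver, each by well under 2-fold. The 2 Stat5b probes were further apart than the technical spread. The scanner software gave an error of about 10% for each of these signals on each array, so differences this small are uncertain.

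The feedback inhibitors went in opposite directions. Socs2, whose product targets the activated receptor for degradation, was 2.76-fold lower, at percentile 2.94 of all genes. The Socs2 probe printed 10 times, on chromosome 10 from 94875066 to 94875125 (mm9), gave scaled signals from 2.86 to 3.19 with a median of 2.98 in wild-type liver. In Snail-labelled liver its 10 spots lay between 0.943 and 1.18 with a median of 1.02. The log2 difference was -1.55 ± 0.08 (SD, n = 10 spots of 1 pair of arrays, a technical spread only).

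**Figure D2:**
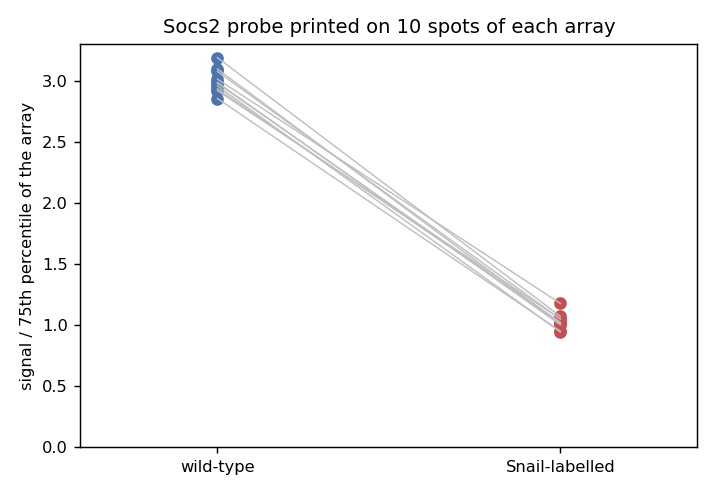
Scaled signal (signal over the 75th percentile of the array) of the 10 spots of a Socs2 probe in wild-type liver (blue) and Snail-labelled liver (red), with lines that join the same spot position. Wild-type spots lie between 2.86 and 3.19 and the others between 0.943 and 1.18, and the spots of an array are technical repeats.

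The other Socs2 probes gave like values. The probe printed above, in the open reading frame, had scaled signals of 1.65 in wild-type and 0.602 in Snail-labelled liver, a log2 difference of -1.46. The remaining probe had 1.83 and 0.696, a difference of -1.40. All 3 probes are assigned to the same RefSeq transcript, with starts 121 and 281 bases apart, so they do not sample separate transcripts. Cish is the other STAT5-induced inhibitor and, like Bcl6 and Igfals, has motif matches in a start window, while Socs2 had no window. Cish had scaled signals of 4.29 in wild-type and 5.17 in Snail-labelled liver. Its log2 difference was 0.27, in the direction opposite to that of Socs2 and under 2-fold.

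The secreted products were both lower, by less than 2-fold. All 5 Igf1 probes had log2 differences below 0, from -0.74 to -0.42, with a mean of -0.62 at percentile 13.4 of all genes. The brightest, on chromosome 10 from 87393581 to 87393640 (mm9), had scaled signals of 65.4 in wild-type and 39.1 in Snail-labelled liver. It shares 40 bases with the probe that had 51.1 and 30.6, and these 2 probes gave nearly the same difference, -0.74 each. The probe for transcript variant 2, which lies 15105 bases upstream of them, had 3.14 and 2.35, a difference of -0.42 and the smallest of the 5. The remaining probes, further downstream, had 2.98 and 2.06 for one and 14.0 and 8.70 for the other. The span of 0.33 between Igf1 probes exceeded the technical spread.

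Igfals, which encodes the acid-labile subunit that keeps IGF1 in the circulation, had scaled signals of 3.82 in wild-type and 2.89 in Snail-labelled liver. Its log2 difference of -0.40 lay at percentile 21.8 of all genes. The hepatocyte marker median was -0.59 under the same scaling. Under quantile normalization it was -0.03 beside -0.47 for Igf1 and -0.35 for Igfals. In the authors' value table, whose sorted values are equal as after quantile normalization, it was -0.02 beside -0.49 and -0.34. With normexp background correction the marker median was -0.52, beside -0.52 for Igf1 and -0.30 for Igfals. The part of the hepatocyte share in these differences was not tested.

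The repressors differed from each other. Bcl6 had scaled signals of 1.16 in wild-type and 1.24 in Snail-labelled liver, a log2 difference of 0.09. Cux2 was the member with the largest difference. Its probe on chromosome 5 from 122308503 to 122308562 (mm9) had scaled signals of 0.874 in wild-type and 0.0969 in Snail-labelled liver, 9.01-fold lower, at percentile 0.601 of all genes. The second probe, 1723 bases away and assigned to the RefSeq transcript of Cux2, was well above background only in wild-type liver. It was at least 7.20-fold lower in the Snail-labelled liver, with signals of 71.6 and 6.63 before scaling. With normexp background correction, which adds an offset to every signal, the log2 difference of the first probe was -1.87 in place of -3.17.

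**Figure D3:**
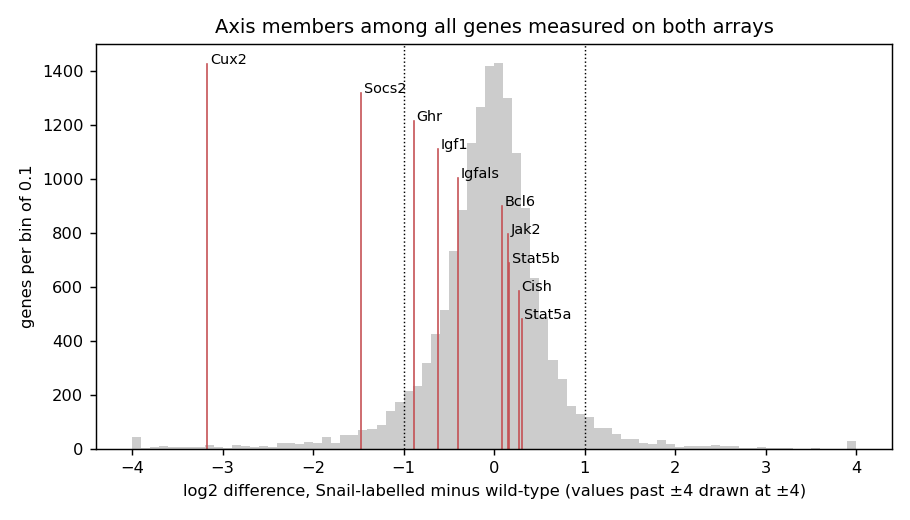
Histogram of the log2 differences (Snail-labelled minus wild-type) of 15466 genes measured on both arrays, in bins of 0.1, with red lines at the 10 members and dotted lines at 2-fold. Cux2 at -3.17 and Socs2 at -1.47 lie past the 2-fold line, and 5 members lie between 0.09 and 0.30.

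Markers of the other liver cells and of sex were read beside these values, because Cux2 differs between the sexes and STAT5 factors, Bcl6 and Cish are also active in leukocytes. Xist, the RNA of the inactive X chromosome of females, was well above background on both arrays, with a mean scaled signal of 1.02 in wild-type and 1.15 in Snail-labelled liver. The Y-linked genes Ddx3y, Eif2s3y, Kdm5d, Uty, Usp9y, Zfy1 and Zfy2 were not well above background on either array. Signals before scaling were from 2.83 to 4.57 in wild-type and from 2.70 to 9.15 in Snail-labelled liver. On both arrays the X-linked marker was thus measured and the Y-linked markers were not, and the log2 difference of Xist was 0.18 beside -3.17 for Cux2.

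Of 8 Kupffer cell and macrophage markers 7 were measured, and Marco alone was past 2-fold, at 2.83-fold higher, with summed scaled signals of 65.3 in wild-type and 78.6 in Snail-labelled liver. All 7 endothelial markers were measured, with sums of 41.1 and 39.2 and Lyve1 at 3.98-fold higher. Of 8 stellate cell markers 7 were measured, with sums of 58.9 and 32.4, Lrat at 2.01-fold lower and Col1a1 at 2.50-fold higher, both short of 2-fold with normexp. Most of that sum was Dcn, with 49.6 and 25.8. Of 6 neutrophil markers 4 were measured, with sums of 3.02 and 6.81. S100a8 and S100a9, which encode the calprotectin subunits, were 3.96-fold and 2.96-fold higher, and Mpo was well above background only in Snail-labelled liver, at least 2.08-fold higher. Of 8 lymphocyte markers 6 were measured, with sums of 5.42 and 3.32, and Cd8a stayed under the background threshold on both arrays. The lower sum was that of 1 probe, Cd4, with 3.53 and 1.37, while 3 of the 6 markers were above 0 and their median was 0.04. Ms4a1 was 2.37-fold higher, but short of 2-fold with normexp. Among bile duct markers Krt19, Krt7, Epcam and Cftr were not well above background on either array, and the 2 measured markers had sums of 0.343 and 0.696. The part of these cells in the values of Jak2, Stat5a, Cish and Bcl6 was not tested.

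Other genes of JAK-STAT signalling were read next. Of 26 genes listed 24 were measured, and past 2-fold 1 was lower and 0 were higher, or 4.17% lower against 6.34% of all genes. The median was 0.18, but -0.01 with normexp and -0.06 without a filter on dim probes. The medians of all genes were -0.03, -0.05 and -0.47 in the same order. The lower gene was Il6ra, the receptor of interleukin 6, at 2.15-fold lower with scaled signals of 10.5 in wild-type and 4.89 in Snail-labelled liver. It was short of 2-fold with normexp, at -0.98, and in the authors' value table. Prlr, the prolactin receptor and a close relative of Ghr, had a mean difference of -0.29, but its probes gave values 0.52 apart. Inhibitors induced by other cytokines had differences of 0.50 for Socs3 and -0.07 for Socs1. The phosphatase genes Ptpn1 and Ptpn11 had 0.61 and 0.33. Of 8 genes of the pituitary and gut hormones and their receptors, among them Gh itself, 0 were well above background on either array.

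The IGF system around Igf1 held larger differences than the JAK-STAT genes. Of 18 genes listed 12 were measured. Past 2-fold 2 were higher and 4 lower, or 16.7% and 33.3%, against 3.96% and 6.34% of all genes. The median was -0.33. Igf1r, the receptor of IGF1, which is low in normal hepatocytes, was 18.3-fold higher, at percentile 99.9 of all genes. Its single probe had scaled signals of 0.171 in wild-type and 3.14 in Snail-labelled liver, and the log2 difference was 4.20, or 3.01 with normexp. The protease gene Htra1, whose product cleaves IGF binding proteins, was 2.57-fold higher, but short of 2-fold with normexp, at 0.88. The fetal growth factor gene Igf2 was well above background only in Snail-labelled liver, at least 2.97-fold higher.

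Binding proteins of IGF were mostly lower, with Igfbp3 the exception among the 6 measured on both arrays. Igfbp2 was 8.98-fold lower, with scaled signals of 27.2 in wild-type and 3.03 in Snail-labelled liver. Igfbp1, which insulin represses in liver, was 4.80-fold lower, with 6.93 and 1.44. Igfbp5 was 5.27-fold lower, with 0.944 and 0.179, and Irs2, an adaptor of the insulin and IGF1 receptors, 5.49-fold lower, with 6.49 and 1.18. Igfbp4 was 1.78-fold lower, and the differences of Igfbp6 and Igfbp3, the carrier that joins IGF1 and the acid-labile subunit, were -0.39 and 0.12. Igfbp3 was dim on both arrays, with signals of 17.3 and 24.4 before scaling. Igfbp7 was well above background only in wild-type liver, at least 1.55-fold lower, and the insulin receptor gene Insr had a difference of -0.26.

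Regulators that act with STAT5 in liver were mostly lower. Of 15 genes listed 14 were measured. Past 2-fold 4 were lower and 0 higher, or 28.6% and 0%, against 6.34% and 3.96% of all genes. The median was -0.58, beside -0.59 for the hepatocyte markers. It was -0.53 under quantile normalization and -0.48 with normexp, where the hepatocyte marker medians were -0.03 and -0.52. The part of the hepatocyte share in these values was not tested. Egfr, a growth factor receptor that growth hormone induces in liver, was 13.0-fold lower by the mean of its 3 probes, with scaled signals of 6.63 in wild-type and 0.512 in Snail-labelled liver. The estrogen receptor gene Esr1 was 4.65-fold lower, with scaled signals of 0.429 in wild-type and 0.0922 in Snail-labelled liver, and its log2 difference of -2.22 was -1.15 with normexp. Foxa3 was 3.52-fold lower. Onecut1, which encodes HNF6, a partner of STAT5 described in rat liver, was 2.15-fold lower, but short of 2-fold with normexp, at -0.84, which left 3 lower regulators. Hnf4a had a difference of -0.24.

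The sex-biased genes that lie downstream of growth hormone pulses in mouse liver were then read, from 1 list of female-biased and 1 of male-biased genes. Of 30 female-biased genes 24 were measured. Past 2-fold 9 were lower and 3 higher, or 37.5% and 12.5%, against 6.34% and 3.96% of all genes. The median was -0.64, or -0.58 under quantile normalization, beside hepatocyte marker medians of -0.59 and -0.03. Hamp2, a hepcidin gene, was 21.4-fold lower, the sulfotransferase gene Sult3a1 9.21-fold, the transporter gene Slc22a27 5.24-fold, Cyp3a41b 5.21-fold, Prom1 3.42-fold, Cyp2a4 2.50-fold, Slc22a26 2.41-fold and Cyp2b13 2.07-fold. The lower gene nearest the threshold was Cyp2b9, at 2.03-fold. Cyp2b13 was short of 2-fold under 4 alternatives, at -0.81 under quantile normalization, where the count of lower genes was 7 in place of 9. Slc22a27 moved from -2.39 to -1.42 with normexp. Cyp3a44 and Slc22a29 were well above background only in wild-type liver, at least 179.0-fold and at least 5.41-fold lower. The 3 higher genes were Sult2a2 at 2.92-fold, whose probes lay 1.54 apart, Ntrk2 at 2.20-fold and Fmo2 at 2.03-fold. With normexp Ntrk2 and Fmo2 were short of 2-fold, as was Sult2a2 with its brightest probe.

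Male-biased genes went both ways. Of 25 listed 15 were measured. Past 2-fold 6 were lower and 4 higher, or 40% and 26.7%, against 6.34% and 3.96% of all genes. The median was -0.78, but -0.30 in the authors' value table and after quantile normalization, and -0.26 with the brightest probe of each gene. The hepatocyte marker medians were -0.59, -0.02, -0.03 and -0.48 in the same order. The fatty acid hydroxylase genes Cyp4a12a and Cyp4a12b were well above background only in Snail-labelled liver, at least 448.9-fold and at least 671.0-fold higher, as was the elongase gene Elovl3, at least 8.32-fold higher. In the other direction, Slco1a1 and Hsd3b5 were well above background only in wild-type liver, at least 12.3-fold and at least 9.37-fold lower. Mup21 was 9.74-fold lower, Mup3 6.37-fold, Susd4 6.04-fold, Cyp2d9 3.63-fold, Cyp7b1 3.13-fold and Mup20 2.76-fold, with Mup20 probes 2.41 apart and its brightest probe at -0.26. The 4 higher measured genes, Cib3, Cyp2c55, Ces2b and Nox4, at 35.4-fold, 29.9-fold, 4.43-fold and 3.71-fold, are genes whose male bias is uncertain. Cib3 and Cyp2c55 rest on dim wild-type signals, and their log2 differences of 5.15 and 4.90 were 3.18 and 3.33 with normexp. Cyp4a12, Mup, Cyp3a, Cyp2b and Sult2a genes have near-identical copies, so a probe may read several of them.

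**Figure D4:**
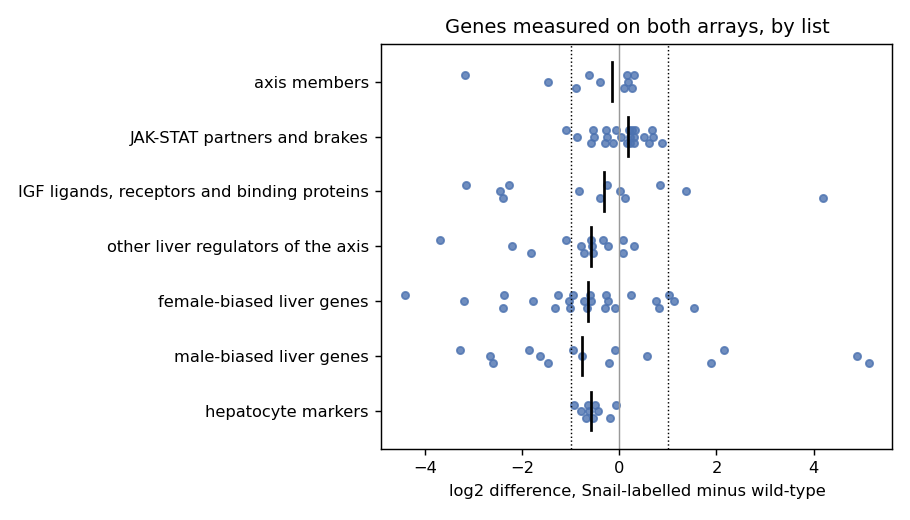
Log2 differences (Snail-labelled minus wild-type) of genes measured on both arrays, 1 point a gene, for the axis members and 6 other lists, with black bars at the medians and dotted lines at 2-fold. The 10 hepatocyte markers lie between -0.94 and -0.08, and both sex-biased lists spread past 2-fold in both directions.

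The direction of each member was the same under every processing tried. Over the alternatives Ghr lay between -0.89 and -0.74, Igf1 between -0.74 and -0.47, and Socs2 between -1.55 and -1.22. Cux2 was at least 2-fold lower under all 7 alternatives that gave it a value. Igfals lay between -0.40 and -0.30 and Cish between 0.27 and 0.36.

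**Figure D5:**
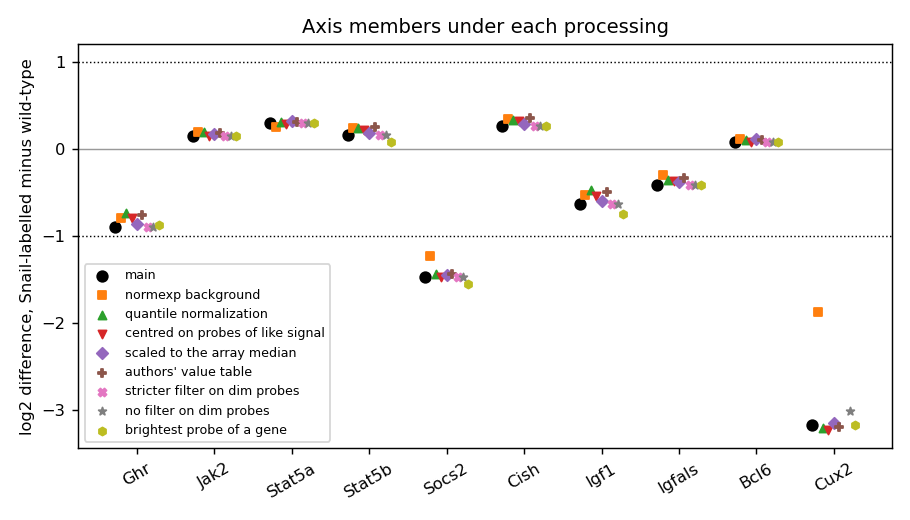
Log2 difference (Snail-labelled minus wild-type) of each member by gene mean under the processing used in the text (black circles) and 8 alternatives (coloured marks), with dotted lines at 2-fold. Under all of them Socs2 stays between -1.55 and -1.22, and Cux2, which has no value under the stricter filter, moves to -1.87 with normexp.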

How the data were processed

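Liver RNA of each genotype, 1 sample each, was read on 1-colour Agilent arrays. The authors deposited intensity values that the submitters' processing notes credit to version 9.5.1.1 of Agilent Feature Extraction. Per the file headers, signals are background-subtracted and detrended within an array, and positions are on mm9. A deposited value table of the same 39429 probes holds linear intensity with a median of 17.3 in both columns. Its sorted values are equal to within 0.108, as after quantile normalization, and no source used here states its scale or centring.

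Each processed signal was divided by the 75th percentile of the 43020 non-control spots of its array and put on a log2 scale (Python 3.11.15, numpy 2.4.6, pandas 2.3.3). The 287 outlier spots were left out and spots of a probe averaged. Genes were given the mean of those probes that the scanner software called well above background on each array. A probe above background on 1 array has a bound: the bright scaled signal over the higher of the dim probe's own and the lowest signal well above background, 13.8 and 12.9. Names came through RefSeq accessions for 66.1% of probes and otherwise from the files.

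Alternatives were normexp (limma 3.58.1, offset 50), quantile normalization, centring on probes of like signal (statsmodels 0.14.6), the array median, the authors' value table, a minimum signal of 100, no filter, and the brightest probe of a gene. The steps were tested on simulated data. The members and the 15 other gene lists were chosen with earlier results of these data known. Genes named from a list are those at least 2-fold apart (up to 8 a direction), bounds of at least 2-fold (up to 5), direct partners of members, all sex markers and Snai1. Vldlr, Cidea, Cyp2b9 and the bile duct and lymphocyte markers below background were named after their values were seen. Only 1 array per group limits the precision: differences between animals and between groups cannot be told apart.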

Additional observations from a re-analysis of the deposited data

How the results depend on the processing

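All 10 members kept their direction under all 8 alternatives that gave them a value, and Socs2 and Cux2 stayed at least 2-fold lower, except that Cux2 has no value under the stricter filter on dim probes, which leaves 1 member at least 2-fold lower. With normexp the log2 differences were -0.79 for Ghr, -0.52 for Igf1, -0.30 for Igfals, -1.22 for Socs2, -1.87 for Cux2, 0.35 for Cish and 0.25 for Stat5b. Under quantile normalization they were -0.74 for Ghr, -0.47 for Igf1, 0.34 for Cish and 0.24 for Stat5b. Centred on probes of like signal they were -0.79 for Ghr, -0.53 for Igf1, 0.33 for Cish and 0.23 for Stat5b. In the authors' value table they were -0.76 for Ghr, -0.49 for Igf1, 0.36 for Cish and 0.26 for Stat5b. With the brightest probe they were -0.74 for Igf1, -1.55 for Socs2 and 0.081 for Stat5b, and without a filter Cux2 was -3.01. The cause of these shifts was not tested.

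Past 2-fold, 613 of all genes were higher and 980 lower. With normexp the counts were 297 and 572, and under the stricter filter, which tests fewer genes, 262 and 605. Without a filter, dim spots were raised to the lowest signal well above background on their array, and the median of all genes was -0.47. A probe below that level on both arrays takes this value by construction. For JAK-STAT genes the count lower was 0 with normexp and 0 in the authors' value table. For IGF genes the count higher was 1 with normexp and 0 under the stricter filter. For male-biased genes the count higher was 2 under the stricter filter, whereas it was 7 with no filter. Leaving out the 4 genes of uncertain bias, an alternative added after seeing the data, gives 0 by construction, since those were the 4 past 2-fold, and shows nothing about the list. For female-biased genes the count higher was 1 with normexp, and the count lower was between 7 and 11 over the alternatives. Of 1078 values of 139 other list genes and Snai1 under the alternatives, 753 stayed within the technical spread, 325 moved further and 0 genes at least 2-fold apart changed direction. No paired analysis was possible because there is 1 array per group, and no array could be left out. Dim signals limit the folds of Cux2, Esr1, Cib3 and Cidec, among others, which normexp made smaller.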

Other observations

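Lipid genes that are higher in mouse livers lacking the growth hormone receptor or STAT5 were also read. Of 7 listed 5 were measured. Past 2-fold 3 were higher and 0 lower, or 60% and 0%, against 3.96% and 6.34% of all genes. The median was 1.28, and 2 were past 2-fold with normexp. Lpl, a lipoprotein lipase that adult hepatocytes express little, was 2.42-fold higher by the mean of 2 probes, but short of 2-fold with normexp, at 0.77. Pparg was 4.10-fold higher. Cidec was 118.1-fold higher by 1 of its 2 probes, at a wild-type signal of 16.4, and its log2 difference of 6.88 was 4.88 with normexp and 4.09 without a filter. Mogat1 was at least 49.96-fold higher, and Cidea stayed under the background threshold on both arrays. Vldlr, a receptor for triglyceride-rich lipoproteins, had a log2 difference of -0.89.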
